A study of Mus musculus with 2 samples.

Results

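Haemoglobin-rich cycling erythroblasts were examined in single-cell RNA-seq libraries of mouse femoral cells. An erythroblast is a nucleated red cell precursor of the bone marrow. A barcode (1 droplet of the library, taken as 1 cell) was counted as a member when at least 1000 genes were detected in it and the haemoglobin genes *Hba-a1*, *Hba-a2*, *Hbb-bs* and *Hbb-bt* together made up at least 50% of its unique molecular identifiers (UMIs, each standing for 1 captured RNA molecule). The members were thus selected on haemoglobin share and gene number, and the rule was met by 632 of 10638 barcodes. Both measures are therefore a description and no finding.

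The femurs came from 7-week-old male C57BL/6J mice. One group was left untreated. The other received calcitriol (1,25-dihydroxyvitamin D3, the hormonal form of vitamin D) intravenously at 2.5 µg/kg once a day on 3 days, and its femurs were taken 24 h after the last dose. In each group the femurs of 6 mice were pooled before 1 library was made, so the data hold 1 library per group and no replicate. The epiphyses and flushed marrow had been discarded, the bone was crushed and digested with collagenase D and EGTA, and CD45-positive blood cells had been removed with magnetic beads, so the erythroblasts are those that remained after these steps.

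No difference between the groups could be tested with 1 library each. Intervals given below are 95% intervals that cover counting error only, and not the difference between mice, pools or preparations. Those of ratios and levels rest on summed UMIs and also leave out the spread between barcodes. Fewer cells of a type cannot be told apart from a different yield of that type in the preparation.

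Erythroblasts divide several times while they fill with haemoglobin, and they leave the cell cycle before the nucleus is expelled. Haemoglobin itself is built from α-globin chains (*Hba-a1*, *Hba-a2*), β-globin chains (*Hbb-bs*, *Hbb-bt*) and haem, an iron-containing ring made partly in mitochondria. *Ube2c* encodes a ubiquitin-conjugating enzyme of the anaphase-promoting complex, *Top2a* the topoisomerase that untangles sister chromatids, and *Cenpf* a protein of the kinetochore.

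The promoters of the genes that name the population are shown first, since globin and cell cycle genes meet in the same barcodes. Each run is the 150 bases directly before the RefSeq transcription start (assembly GRCm38.p6), written along the gene's strand. The windows are chr7:103827929-103828078 for *Hbb-bs*, chr2:164769779-164769928 for *Ube2c*, chr11:99024190-99024339 for *Top2a* and chr1:189688087-189688236 for *Cenpf*, on the minus strand except for *Ube2c*. GENCODE models of *Hbb-bs* and *Ube2c* begin farther upstream and overlap their windows. Capitals mark the CCAAT box, the CACCC box, the cell-cycle homology region, which was searched as TTTGAA and also as TTCGAA, and the GATA motif, which was searched as AGATAA and also as TGATAA. Both strands were searched, so the CCAAT box may be printed as ATTGG, the box CACCC likewise as GGGTG, and the homology region as TTCAAA. The motifs do not overlap in these runs.
Hbb-bs: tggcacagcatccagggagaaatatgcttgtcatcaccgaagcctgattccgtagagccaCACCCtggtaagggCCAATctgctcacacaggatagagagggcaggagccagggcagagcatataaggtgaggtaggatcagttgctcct
Ube2c: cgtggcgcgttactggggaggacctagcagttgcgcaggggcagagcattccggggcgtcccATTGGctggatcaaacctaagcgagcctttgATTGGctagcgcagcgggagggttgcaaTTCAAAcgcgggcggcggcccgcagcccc
Top2a: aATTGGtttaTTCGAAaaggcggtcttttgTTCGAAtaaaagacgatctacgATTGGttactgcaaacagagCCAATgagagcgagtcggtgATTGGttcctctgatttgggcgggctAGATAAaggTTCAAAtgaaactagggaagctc
Cenpf: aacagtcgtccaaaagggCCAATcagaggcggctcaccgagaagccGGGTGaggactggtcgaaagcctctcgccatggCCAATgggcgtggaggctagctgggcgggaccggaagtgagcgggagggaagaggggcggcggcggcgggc

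In its printed run the *Hbb-bs* promoter held CACCC 90 to 86 bases and CCAAT 76 to 72 bases before the start. An AGATAA lay upstream of that run, at 210 to 205 bases. The printed *Ube2c* run held CCAAT on the opposite strand at 88 to 84 and at 57 to 53 bases, and TTTGAA on the opposite strand at 29 to 24 bases. Further CCAAT boxes of *Ube2c* lay upstream of that run, between 228 and 151 bases. In *Top2a* there were 4 CCAAT boxes and 3 cell-cycle homology regions in the printed run, beside 1 AGATAA. *Cenpf* had 2 CCAAT boxes and a CACCC box on the opposite strand. Over 250 bases before the start, CCAAT was found in 40 of 53 windows (75.5%) of the 48 matched genes of a list of 57 G2 and mitosis genes, and in 33.8% of all 32851 windows. The cell-cycle homology region was found in 22 of these 53 windows (41.5%) and in 17.1% of all windows. An E2F motif (TTTCCCGC, TTTCGCGC, TTTGGCGC or TTTGCCGC) was found in 10 of 39 windows (25.6%) of the 32 matched genes of a list of 44 replication and S phase genes, in 1 of 53 G2 and mitosis windows (1.89%) and in 1.86% of all windows. Among the 20 matched genes of a red cell membrane list, GATA was found in 8 of 24 windows (33.3%) against 16.6% of all, and CACCC in 18 of 24 (75%) against 52.0%. The other red cell lists searched had GATA in 3 of 22 windows (13.6%) for haem synthesis and 6 of 42 (14.3%) for terminal maturation, and CACCC in 59.1% and 61.9%. The replication and S phase windows held CACCC in 26 of 39 (66.7%) and CCAAT in 22 of 39 (56.4%). CACCC was found in 27 of 53 G2 and mitosis windows (50.9%). In the 2210 windows of the genes measured in the members, which is the nearer background, the shares were 40.5% for CCAAT, 13.7% for the homology region, 4.48% for E2F, 9.77% for GATA and 56.5% for CACCC. The haem synthesis and terminal maturation lists thus lay below all windows but above the measured genes for GATA. A match describes the letters of the window and no binding was measured.

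The untreated library held 6076 barcodes and 70266983 UMIs, and the calcitriol library 4562 barcodes and 60392557 UMIs. Of these, 4633 and 3920 barcodes had 200 genes or more. Members numbered 581 in the untreated library (9.56% of its barcodes, exact binomial interval 8.83 to 10.3%) and 51 in the calcitriol library (1.12%, 0.833 to 1.47%). Haemoglobin genes took 41.2% of all UMIs in the untreated library and 10.6% in the calcitriol library. Among the barcodes with at least 50% haemoglobin, members were 18.4% of 3161 (17.0 to 19.8%) and 6.47% of 788 (4.86 to 8.42%). The calcitriol library thus held fewer haemoglobin-rich barcodes of any size, and among them a smaller share with 1000 genes or more.

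The members of both libraries were of similar depth. Their median was 12039 UMIs and 1479 genes in the untreated library and 12722 UMIs and 1597 genes in the calcitriol library. UMIs ran from 4976 to 27271 and from 7727 to 24834. The median haemoglobin share was 60.9% and 58.4%. Of 8 barcode sequences present in both libraries, 0 were members. Because the rule fixes the haemoglobin share, gene levels are given below as CPM, the UMIs of a gene per 1000000 non-haemoglobin UMIs, both summed over the members (2821017 such UMIs untreated and 277318 calcitriol).

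**Figure D1:**
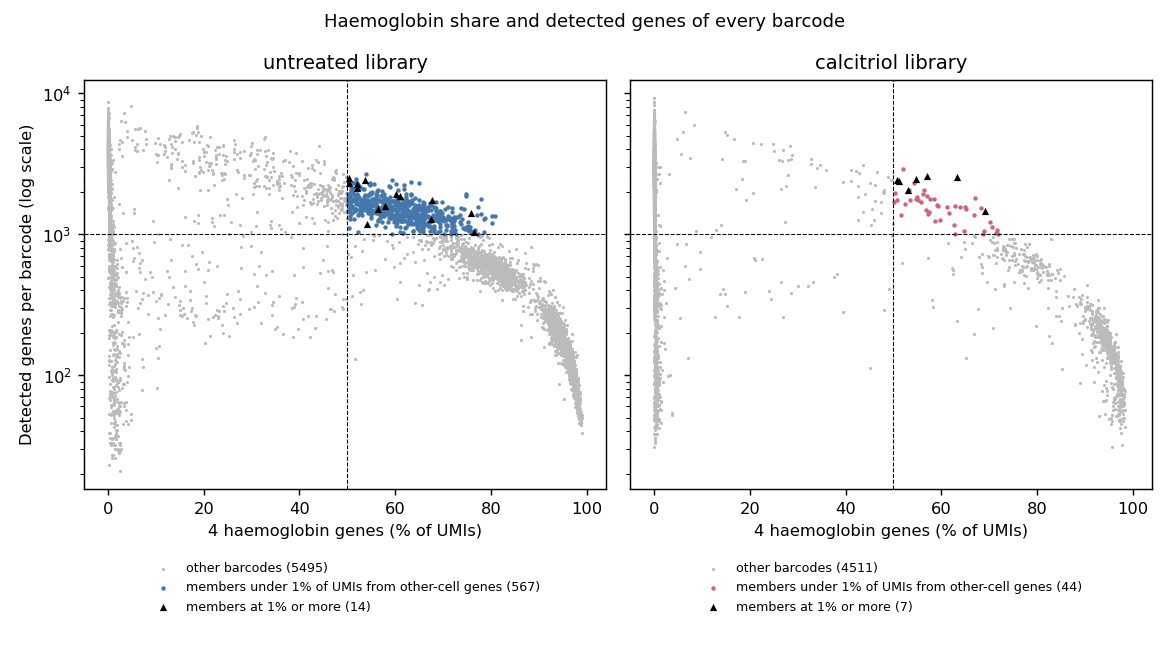
Each point is 1 barcode, with the share of its UMIs from the 4 haemoglobin genes (x axis, %) and its number of detected genes (y axis, log scale), for the untreated (left) and calcitriol (right) library. Dashed lines mark 50% and 1000 genes, coloured points are members, and black triangles are the 14 untreated and 7 calcitriol members with at least 1% of their non-haemoglobin UMIs from genes of other cell types.

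Some barcodes that met the rule held RNA of other cells. With 111 marker genes of 12 other cell types, 14 of 581 untreated members (2.41%, 1.32 to 4.01%) and 7 of 51 calcitriol members (13.7%, 5.70 to 26.3%) drew 1% or more of their non-haemoglobin UMIs from such genes. They are called mixed barcodes here. In the untreated library they held 2.87% of the members' non-haemoglobin UMIs, and in the calcitriol library 20.6%. The leading markers were those of osteoblasts in 10 and of fibroblasts and tendon in 4 of the untreated barcodes, and of fibroblasts and tendon in 3, osteoblasts in 2 and chondrocytes in 2 of the calcitriol barcodes. Their leading genes were the matrix genes *Sparc*, *Col1a1*, *Dcn*, *Fmod*, *Ibsp*, *Spp1* and *Cytl1*. A doublet caller (Scrublet) marked 3 of the 14 and 0 of the 7.

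The mixed barcodes also stood apart in the cell cycle. The median share of the G2 and mitosis list was 0.191% of non-haemoglobin UMIs in the untreated and 0.0905% in the calcitriol mixed barcodes, against 5.95% and 5.74% in the other members. In the endothelial barcodes described below the list took 0.131% and 0.0884% of the summed UMIs. Whether the mixed barcodes held an erythroblast at all was not tested, so values over all members may include other cells. Results are therefore given for the 567 untreated and 44 calcitriol members that remained, unless all members are named, and the counts and summed ratios of the gene lists are given for both where they differ. In the remaining members the osteoblast list took 0.020% of the untreated and 0.057% of the calcitriol UMIs, with *Sparc* as its most abundant gene and *Runx2* and *Sp7* at 0. The chondrocyte list took 0.011% and 0.034% (*Col2a1* the most abundant), and the fibroblast and tendon list 0.0072% and 0.011% (*Dcn*). The blood lists were near 0, with *Ptprc* (the CD45 gene), *Adgre1*, *C1qa*, *Elane*, *Mpo*, *Cd3e*, *Cd79a* and *Pf4* at 0 UMIs in both libraries. The small stromal remainder was higher in the calcitriol library, and its part in the ratios was not tested.

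The levels of the label's markers are given as a description. The members were chosen with earlier results of these data known, so these markers are no independent check of the label. *Hbb-bs*, which had 879904 CPM in the untreated and 837466 in the calcitriol members, is a gene of the rule and so checks nothing. *Ube2c* stood at 6384 and 5963, *Cenpf* at 2885 and 2325, and *Top2a* at 2180 and 1594. With each barcode thinned to 1000 non-haemoglobin UMIs, *Ube2c* was detected in 90.1% of untreated members (98.2% unthinned), *Cenpf* in 82.7% (95.9%) and *Top2a* in 79.2% (91.9%). In endothelial barcodes of the same library, which should hold little of these genes, the thinned shares were 1.95%, 1.95% and 1.46%, and the unthinned 5.85%, 6.83% and 7.32%. The median non-haemoglobin UMIs were 4606 in the members and 9667 in the 205 endothelial barcodes, so depth does not favour the members.

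In the calcitriol members the thinned shares were 77.3% for *Ube2c* (93.2% unthinned), 65.9% for *Cenpf* (79.5%) and 61.4% for *Top2a* (70.5%), and in the 233 endothelial barcodes of that library 0.429% each. The members thus carried the division genes of the label in both libraries, with smaller shares of positive barcodes in the calcitriol library. *Kit*, the receptor of early progenitors, had 0 UMIs in both without the mixed barcodes, which allows up to 0.529% of untreated and 6.82% of calcitriol barcodes with a UMI and sets no limit on barcodes that express the gene. With all members it had 1 UMI, in a calcitriol mixed barcode.

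Cell cycle genes differed between the groups. Replication and S phase genes were lower in the calcitriol members, while the G2 and mitosis genes differed little once the mixed barcodes were left out. The S phase list took 0.651% of non-haemoglobin UMIs in the untreated and 0.399% in the calcitriol members (log2 ratio −0.70, interval −0.80 to −0.61). The G2 and mitosis list took 5.97% and 5.39% (−0.15, −0.17 to −0.12). With the mixed barcodes included the ratios were −0.93 (−1.03 to −0.84) and −0.43 (−0.46 to −0.41).

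A gene was counted as higher or lower when its ratio passed 1.5-fold, among genes with at least 200 UMIs over both libraries. Over all members 199 of 2162 genes were higher with calcitriol (9.2%) and 476 lower (22%), and the median log2 ratio was −0.19. Without the mixed barcodes 152 of 2075 were higher (7.33%) and 286 lower (13.8%), and the median was −0.08. These sets shared 95 higher and 265 lower genes. The untreated members held most of the UMIs, so that genes reached the minimum mainly through them, and the balance depended on it. Among all members and the 9212 genes with at least 1 UMI in each library and no other minimum, 4405 were higher and 1354 lower. Of the 25 S phase genes measured, 20 were lower and 0 higher without the mixed barcodes, with a median of −0.74, and 25 of 25 lay below 0. Of the 54 G2 and mitosis genes, 8 were lower and 0 higher, with a median of −0.24. With all members included these counts were 22 and 0 of 25, and 22 and 1 of 54.

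The enzymes that supply DNA precursors were among the lower genes. *Rrm2*, the regulated subunit of ribonucleotide reductase and the most abundant gene of the list, had 1030 CPM in the untreated and 563 in the calcitriol members (−0.87, −1.14 to −0.61), and *Rrm1*, its partner subunit, 304 and 164 (−0.89). *Tyms*, thymidylate synthase, had 377 and 182 (−1.05, −1.55 to −0.60), *Tk1*, thymidine kinase, 423 and 273 (−0.63), and *Dut*, the dUTPase, 85.0 and 27.3 (−1.64). *Slbp*, which binds histone mRNA in S phase, had 515 and 318 (−0.70).

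The replication machinery showed the same direction. *Pcna*, the sliding clamp of DNA polymerases, had 373 and 241 (−0.63, −1.06 to −0.23). *Fen1*, the flap endonuclease, stood at −0.80, and *Atad2*, a chromatin ATPase, at −0.94. *Pola1*, the catalytic subunit of the primase-associated polymerase, had 294 UMIs in the untreated and 5 in the calcitriol members (−2.24, with the whole interval below 0). The helicase subunits *Mcm2*, *Mcm3*, *Mcm4* and *Mcm6* lay between −0.92 and −1.26, each with under 10 calcitriol UMIs, and the interval of *Mcm2* reached above 0. Of the other members of the list past 1.5-fold, *Clspn*, *Uhrf1*, *Dnmt1* and *Ccne2* lay between −0.66 and −0.74, and *Prim1* and *Rpa2* at −0.65 and −0.80 with intervals that reached 0.

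The abundant mitotic genes were close between the libraries. *Hmgb2*, a chromatin protein and the most abundant gene of the G2 and mitosis list, had 9670 and 10137 CPM (0.07). *Ube2c* stood at −0.10 (−0.18 to −0.02), *Mki67*, the proliferation antigen, at −0.26, *Cenpf* at −0.31 (−0.44 to −0.18), *Birc5*, survivin, at −0.43 and *Top2a* at −0.45 (−0.61 to −0.30). The 8 of 54 past 1.5-fold lower, a share near the 13.8% of all genes, were *Prc1*, *Anln*, *Cit*, *Plk1*, *Kif20a*, *Kif20b*, *G2e3* and *Ttk*. *Prc1*, which bundles the microtubules of the central spindle, had 1844 and 1208 (−0.61, −0.79 to −0.43) and *Anln*, anillin of the cleavage furrow, 382 and 200 (−0.93). *Ccnb1*, the mitotic cyclin B1, was on the other side at 498 and 727 (0.54, 0.30 to 0.78), short of 1.5-fold.

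Among 16 measured cyclins, cyclin-dependent kinases and their inhibitors, 3 were lower and 0 higher (summed ratio −0.04), and with all members 4 were lower (−0.27). The shares lower among all genes were 13.8% and 22%, so these counts are close to the background. *Cdkn2d*, the inhibitor p19 and the most abundant of the list, had 2060 and 1304 CPM (−0.66, −0.84 to −0.49). *Ccnf*, cyclin F, stood at −1.01, and *Ccne2*, cyclin E2, at −0.71. *Cdkn1b*, the inhibitor p27, had 763 and 722 (−0.08), *Cdk1* 1031 and 899 (−0.20) and *E2f2* 944 and 1281 (0.44). Genes that hold and release the cycle were thus not shifted together.

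Single barcodes showed how these sums arose. The S phase list had a median of 0.385% of non-haemoglobin UMIs per untreated member and 0.231% per calcitriol member, and reached 4.00% and 1.77%. It made up 0.5% or more in 224 of 567 untreated members (39.5%, 35.5 to 43.7%) and in 10 of 44 calcitriol members (22.7%, 11.5 to 37.8%). The G2 and mitosis list made up 6% or more in 49.0% of untreated (44.8 to 53.2%) and 43.2% of calcitriol members (28.3 to 59.0%). It was under 1% in 11 of 567 untreated members (1.94%, 0.972 to 3.44%) and in 8 of 44 calcitriol members (18.2%, 8.19 to 32.7%). These low barcodes had a median of 1055 and 1065 detected genes and a haemoglobin share of 67.1% and 68.5%, near the gene minimum of the rule. Most members of either library therefore held mitotic RNA, and members with little of it were a larger share in the calcitriol library.

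**Figure D2:**
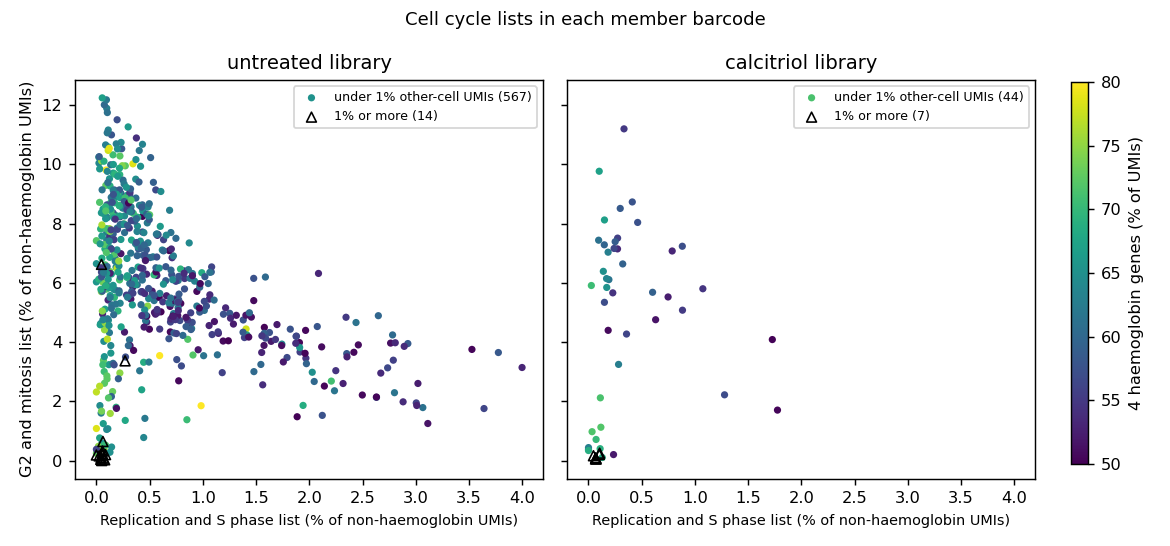
Each point is 1 member barcode, with the replication and S phase list (x axis) and the G2 and mitosis list (y axis) as % of its non-haemoglobin UMIs, coloured by haemoglobin share, and open triangles are the mixed barcodes. Untreated members spread out to 4.00% on the S phase axis and the calcitriol members to 1.77%, and all but 2 of the mixed barcodes lie below 1% on the G2 and mitosis axis.

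Within the members the haemoglobin share ordered the genes. The members without the mixed barcodes were divided at 60% and 70% haemoglobin, which gave 254, 245 and 68 untreated and 25, 14 and 5 calcitriol barcodes. In the untreated library the S phase list took 0.946%, 0.408% and 0.253% from the lowest to the highest bin, and in the calcitriol library 0.552%, 0.128% and 0.0676%. At each haemoglobin share it was lower in the calcitriol members. The G2 and mitosis list took 5.47%, 6.59% and 5.73% in the untreated library, and 5.85%, 5.06% and 2.41% in the calcitriol library. It was thus slightly higher with calcitriol in the lowest bin and lower in the other bins, the highest of which rests on 5 barcodes.

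The named division genes did not follow 1 course. In the untreated library *Ube2c* stood at 4678, 7869 and 8344 CPM from the lowest to the highest bin, whereas *Top2a* stood at 2451, 2064 and 1382. *Cenpf* had its highest level in the middle bin (2328, 3504 and 2981). *Pcna* went from 598 to 182 and 88.6. In the calcitriol library *Ube2c* stood at 5842, 6389 and 5339 and *Top2a* at 1861, 1281 and 338. *Alas2*, the first enzyme of haem synthesis in red cells, went from 2744 to 3996 and 6246 in the untreated and from 3526 to 5556 and 7096 in the calcitriol library.

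Across 936 genes with 500 UMIs or more, 170 were at least 1.5-fold higher and 244 at least 1.5-fold lower in the highest than in the lowest bin of the untreated library, with a median log2 ratio of −0.10. The genes at the upper end were *Xpo7*, a nuclear export receptor (3.86), *Bpgm*, which makes 2,3-bisphosphoglycerate (3.32), *Ube2b* (2.35), *Tmcc2* (2.24), *Hscb* (2.19), *Ube2h* (2.11), *Mkrn1* (2.08) and *Iscu* (2.05). *Ube2b*, *Ube2h* and *Mkrn1* encode enzymes of the ubiquitin pathway, and *Hscb* and *Iscu* proteins of iron-sulphur cluster assembly. At the lower end were *Pcna* (−2.76), *Rps4x* (−2.67), *E2f8* (−2.64), *Zfp367* (−2.53), *Atad2* (−2.53), *Pclaf* (−2.41), *Tyms* (−2.37) and *Hpf1* (−2.29). *Bpgm* had 238, 773 and 2375 CPM in the untreated bins and 546, 1825 and 3582 in the calcitriol bins. The bins were cut on a quantity that chose the members, so the order is a description.

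**Figure D3:**
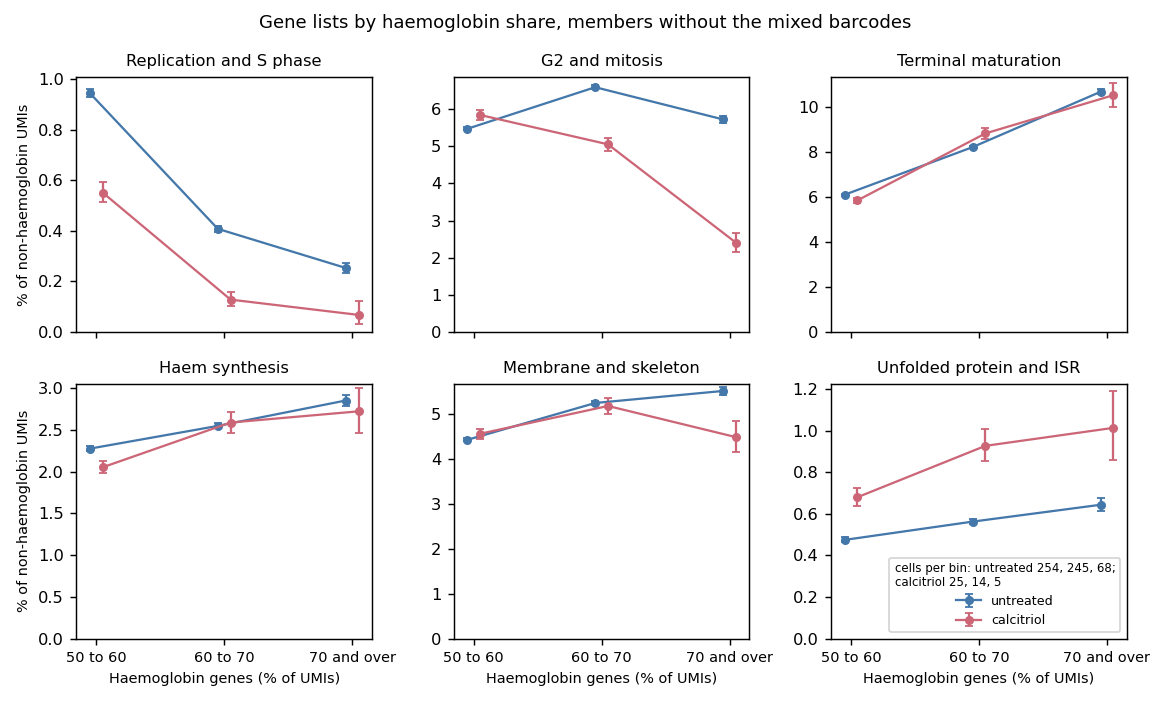
Summed gene lists as % of non-haemoglobin UMIs (y axis) in members with 50 to 60, 60 to 70 and at least 70% haemoglobin (x axis), without the mixed barcodes, for the untreated and calcitriol library; bars are 95% Poisson intervals. The S phase list goes down and the terminal maturation list goes up with haemoglobin share in both libraries, and the stress list lies higher in the calcitriol library in each bin.

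Of 16 measured haem synthesis genes 3 were lower and 0 higher (summed ratio −0.12), and with all members 5 were lower (−0.35). The shares lower among all genes were 13.8% and 22%, so that 3 of 16 is close to the background. The same shares apply to the lists that follow, whose small counts are a description. *Cpox*, the coproporphyrinogen oxidase, had 2683 and 1381 CPM (−0.96, −1.13 to −0.79), and *Blvrb*, biliverdin reductase B, 4859 and 3179 (−0.61). *Alas2*, which starts the pathway, had 3626 and 4342 (0.26) and *Fech*, which inserts the iron, 1798 and 1903 (0.08). The remaining gene past 1.5-fold, *Abcb6*, had 13 calcitriol UMIs and an interval that crossed 0. *Alas2*, which acts before *Cpox*, and *Fech*, which acts after it, were therefore not lower with it.

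Iron genes showed 3 lower and 0 higher of 14 measured (summed ratio −0.25, and −0.40 with all members). *Ftl1*, the light chain of the iron store ferritin, had 6736 and 3870 CPM (−0.80, −0.90 to −0.70), with the limit that near-identical copies of the gene may share its reads. *Fth1*, the heavy chain, had 13952 and 11918 (−0.23). *Tfrc*, the transferrin receptor through which erythroblasts take up iron, was on the other side with 1838 and 2362 (0.36, 0.23 to 0.49). *Isca2*, of iron-sulphur cluster assembly, and *Slc11a2*, the endosomal iron transporter, stood at −0.88 and −0.78 with 23 and 16 calcitriol UMIs.

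The globins were compared only among themselves, since their sum chose the members. *Hbb-bt* had 13.3% of the globin UMIs of the 4 genes in the untreated and 11.1% in the calcitriol members, and *Hbb-bs* 53.7% and 56.0%. The ratio of α to β globin UMIs was 0.493 and 0.491. *Hbb-bs* and *Hbb-bt*, and likewise *Hba-a1* and *Hba-a2*, are near-identical copies, and reads may be divided between them with error.

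Genes of the red cell membrane and skeleton differed little without the mixed barcodes, with 0 of 26 measured genes past 1.5-fold and a summed ratio of −0.04. With all members 6 of the 26 were lower and 0 higher, 22 lay below 0 and the ratio was −0.32. *Cd24a* had 8895 and 8466 CPM, and *Slc4a1*, the anion exchanger band 3, 5805 and 6890 (0.25). *Rhd*, of the Rhesus complex, had 4107 and 3016 (−0.45).

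Of 17 measured erythroid regulators and receptors 2 were higher and 2 lower (summed ratio −0.07), and with all members 2 and 4 (−0.34). *Klf1*, the erythroid Krüppel-like factor that binds CACCC boxes, had 716 and 522 CPM (−0.45, −0.74 to −0.18), and *Gata1* 163 and 145 (−0.17, −0.74 to 0.35). *Tal1*, of the GATA1 complex, had 498 and 291 (−0.78, −1.16 to −0.42), and *Lyl1*, its close relative, 150 and 95.4 (−0.65). *Foxo3*, a factor of late red cell maturation, had 323 and 491 (0.60, 0.30 to 0.89), and *Klf13* 89.4 and 173 (0.95). With all members *Foxo3* stood at 0.30.

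Of 35 measured genes of terminal maturation 6 were higher and 3 lower (summed ratio −0.09), against 7.33% and 13.8% of all genes. With all members 5 were higher and 6 lower (−0.27), against 9.2% and 22%. *Xpo7* had 467 and 1072 CPM (1.20, 0.99 to 1.40), with 23.3% of its calcitriol UMIs in 1 barcode. *Tmcc2*, a membrane protein gene, had 1410 and 2911 (1.05, 0.92 to 1.17), *Ube2h* 239 and 513 (1.10), *Bpgm* 681 and 1113 (0.71) and *Ulk1*, an autophagy kinase, 90.1 and 141 (0.64). *Gpx1*, the most abundant gene of the list, was near equal (−0.03). On the other side *Car2*, carbonic anhydrase 2, had 14503 and 9452 (−0.62, −0.68 to −0.55), and *Fam210b* and *Fbxo7* stood at −0.61 and −0.64. *Xpo7*, *Tmcc2*, *Ube2h* and *Bpgm* are also among the genes that were higher at high haemoglobin share. Each of these genes was higher in the calcitriol members in every haemoglobin bin. From the lowest to the highest bin *Xpo7* had 115, 577 and 1666 CPM untreated and 329, 2578 and 1892 with calcitriol. *Tmcc2* had 687, 1789 and 3250, and 1616, 5524 and 4392, and *Ube2h* 140, 263 and 603, and 294, 865 and 1149. The highest calcitriol bin rests on 5 barcodes. The part of haemoglobin share in the ratios of these genes was not tested.

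Genes of the unfolded protein and integrated stress responses, which answer misfolded protein, amino acid shortage or haem shortage, were higher in the calcitriol members. The list took 0.529% and 0.773% of non-haemoglobin UMIs (0.55, 0.47 to 0.62), 5 of 9 measured genes were higher and 0 lower, and 9 of 9 lay above 0. With all members it stood at 0.35 (0.28 to 0.42), with 3 of 9 higher. *Asns*, asparagine synthetase, had 92.0 and 386 CPM (2.07, 1.70 to 2.43). *Ddit3*, the stress factor CHOP, had 255 and 568 (1.15, 0.87 to 1.43), and *Hspa5*, the chaperone BiP of the endoplasmic reticulum, 635 and 1013 (0.67, 0.47 to 0.88).

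*Hsp90b1* and *Herpud1*, also of the endoplasmic reticulum, stood at 0.60 each. *Atf4*, the transcription factor of the integrated stress response, had 478 and 677 (0.50), *Ppp1r15a*, which restores translation, 2208 and 2889 (0.39), and *Eif2ak1*, the haem-regulated kinase, stood at 0.15. By haemoglobin bin the list took 0.475%, 0.563% and 0.644% in the untreated and 0.680%, 0.927% and 1.01% in the calcitriol members. The higher share with calcitriol was thus present in each of the 3 bins.

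The list of genes induced by tissue dissociation was also higher, at 0.611% and 0.875% (0.52, 0.45 to 0.59). Of 8 measured genes 2 were higher, *Dnaja1* (0.69) and *Ier2* (0.86), and *Jund*, the most abundant, had 2197 and 3088 CPM (0.49). With all members the ratio was 0.96 and 10 of 14 were higher. *Hsp90aa1* lay on the other side (−0.53). Of the 8 genes 5 lay above 0 and 3 below, with a median of 0.19. The summed shares of the stress and the dissociation list were thus both higher with calcitriol. The dissociation genes are known to respond to cell isolation, whose part in the stress result was not tested.

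No gene of the vitamin D list reached the minimum without the mixed barcodes. *Vdr*, the receptor of calcitriol, and *Cyp24a1*, its classical target, then had 0 UMIs in both libraries. For each gene this allows up to 0.529% of untreated and 6.82% of calcitriol members with a UMI, and sets no limit on members that express it. With all members *Vdr* had 1 UMI, in an untreated mixed barcode. The list took 0.012% and 0.024%, and *Pdia3*, a disulphide isomerase, was its most abundant gene. With all members it took 0.017% and 0.347%, led by *Spp1*, of which 75.9% of the calcitriol UMIs were in 1 mixed barcode.

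The remaining lists were small. Of 7 genes of the erythropoietin and STAT5 response 0 passed 1.5-fold (summed ratio 0.37, and 0.24 with all members), led by *Tfrc*, and *Pim1* stood at 0.47 and *Epor*, the erythropoietin receptor, at −0.07. Of 2 measured glucocorticoid response genes, *Dusp1* stood at 0.28 and *Txnip* at 0.57, while the sum of the list was 1.49. With all members 5 of 5 measured were higher and the sum was 2.66. Of 8 interferon response genes *Ifitm3* was higher (0.99) and *Usp18* lower (−1.01), with *Isg15* at 0.31, and with all members 1 was higher and 2 lower. In the p53 list *Bax* was lower (−1.13) with 10 calcitriol UMIs, 1 of 4 measured genes, and with all members 1 of 5 was higher and 1 lower. Of 3 glycolysis genes only *Bpgm* was past 1.5-fold, and the sum was 0.41, or 0.78 with all members. Ribosomal protein genes had 3 of 75 higher and a summed ratio of 0.01, which was 0.42 with 28 higher when all members were counted. Of 9 mitochondrially encoded genes *mt-Nd5* was higher (1.14), and the sum stood at −0.05. With all members 5 were higher and the sum was 0.28.

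**Figure D4:**
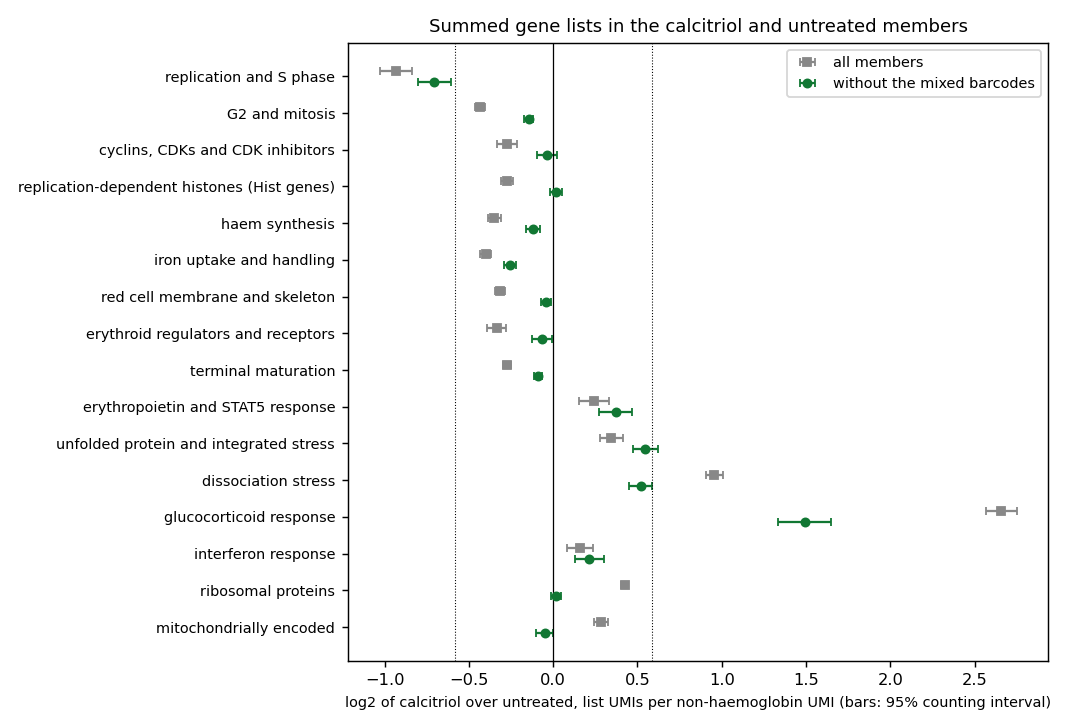
Log2 ratio of each summed gene list, calcitriol over untreated members (x axis), for all members (grey squares) and without the mixed barcodes (green circles); bars are 95% counting intervals and dotted lines mark 1.5-fold. The S phase list lies below −0.6 in both, the stress list above 0 in both, and the ribosomal protein and mitochondrial lists come to near 0 without the mixed barcodes.

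Replication-dependent histone genes, whose mRNAs are made with DNA synthesis, summed to 3.23% and 3.27% (0.02), yet single genes differed widely. Of 37 measured, 12 were lower and 5 higher, and with all members 18 were lower and 3 higher (summed ratio −0.27). The 12 lower genes were 4 linker and 8 core histone genes. Of the linker genes *Hist1h1b* had 5550 and 2966 CPM (−0.90, −1.02 to −0.79), *Hist1h1e* 3622 and 1349 (−1.43, −1.60 to −1.26), and *Hist1h1d* and *Hist1h1a* stood at −0.93 and −0.92. The lower core genes ran from *Hist2h2bb* (−0.92) to *Hist1h4c* (−0.60), and the intervals of *Hist1h4a* and *Hist1h4c* reached above 0. The 5 higher were also core histone genes. *Hist1h2ap* had 2618 and 6731 (1.36, 1.28 to 1.44), *Hist1h2ae* 2589 and 4760 (0.88), *Hist1h2bc* 969 and 1894 (0.97), and *Hist1h2ab* and *Hist1h3f* stood at 0.73 and 0.78. Core histone genes have many near-identical copies, so the division of reads among them is uncertain, and these mRNAs mostly lack the poly(A) tail that the 3′ method captures.

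The most abundant non-haemoglobin genes of the members were *Malat1*, a nuclear long RNA (35504 and 35072 CPM), *H3f3a*, the replacement histone H3.3 (16529 and 11659, −0.50), *Gpx1* and *Prdx2*, which remove peroxides (14235 and 13962, 14308 and 11909), *Car2* and *Fth1*. *Gm42418*, which overlaps ribosomal RNA sequence, followed with 10348 and 14057 (0.44). *Hmgb2*, *Cd24a*, *Tpt1*, *Eif1*, *Ftl1*, *Ube2c* and *Slc4a1* were also among the first 15. The counts are of 3′ ends and do not scale with transcript length.

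When all members were ranked by ratio, the 15 highest genes were *Cytl1* (7.13), *Ecrg4* (6.30), *Spp1* (5.73), *Prg4*, *Msmp*, *Gsn*, *Egr1*, *Ccn2*, *Cebpd*, *Cst3*, *Mt1*, *Fos*, *Mt2*, *Cd9* and *Junb* (3.69). *Cytl1* had 51.0% and *Msmp* 98.8% of its calcitriol UMIs in 1 barcode. Without the mixed barcodes only *Cst3* kept a place among the first 15. Genes could leave through a lower ratio or by falling below the UMI minimum. Of the chondrocyte list 2 genes were measured over all members and 0 without the mixed barcodes. Its summed ratio was 4.47 and 1.59. Of the glucocorticoid list 5 and 2 genes were measured, with sums of 2.66 and 1.49. The upper end over all members thus drew on UMIs of the mixed barcodes, but a lost place alone does not show a lower ratio.

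Without the mixed barcodes the 15 highest genes were *Cst3* (2.98), *Asns* (2.07), *Sparc* (2.03), *Eif3c* (1.61), *Brd2* (1.54), *Neat1* (1.53), *Gng5* (1.53), *Tcp11l2* (1.48), *Ctsf* (1.45), *Prxl2a* (1.40), *Hist1h2ap* (1.36), *Taf1d* (1.33), *Hexim1* (1.32), *2410006H16Rik* (1.31) and *Snhg8* (1.30). Of their calcitriol UMIs, 1 barcode held 63.4% for *Cst3*, 59.6% for *Brd2*, 40.6% for *Sparc* and 34.3% for *Neat1*. *Eif3c*, a subunit of initiation factor 3, had 180 and 550 CPM, and *Gng5*, a G protein γ subunit, 261 and 754.

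The 15 lowest genes without the mixed barcodes were *Rpa3* (−3.26), *Pola1* (−2.24), *Eif2ak2* (−2.05), *Hars* (−2.01), *Rngtt* (−2.01), *Naa38* (−1.81), *Wdhd1* (−1.76), *Cbx1* (−1.72), *Tkt* (−1.67), *Dut* (−1.64), *Mis12* (−1.60), *Actr2* (−1.58), *Tln1* (−1.57), *Cltc* (−1.56) and *Nans* (−1.55). *Rpa3*, *Pola1*, *Wdhd1* and *Dut* act in DNA replication or its supply, and *Mis12* at the kinetochore. Such genes met the UMI minimum of the ranking almost only through the untreated members. *Wdhd1* had 211 untreated and 5 calcitriol UMIs, and *Dut* 233 and 6. Genes with few UMIs in the untreated members could not enter at this end, so its make-up depended in part on the minimum. *Rpa3*, a subunit of the single-strand binding protein, had 239 UMIs in the untreated and 2 in the calcitriol members (interval −6.32 to −1.39). *Tkt*, transketolase, had 395 and 10 UMIs, and *Cltc*, the clathrin heavy chain, 1031 and 28. Most of these ratios rest on fewer than 10 calcitriol UMIs.

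The same genes were read in other barcodes of the same 2 libraries, which share pools and preparation with the members. Smaller barcodes with 200 genes or more, fewer than 1000 genes and at least 50% haemoglobin (1333 untreated and 317 calcitriol without mixed ones) gave *Asns* at 2.26 (1.99 to 2.52), *Ddit3* at 2.41 (2.10 to 2.72), *Eif3c* at 2.12 and *Gng5* at 2.38. The endothelial barcodes gave −0.57, 0.52, −0.07 and −0.10 for these genes. *Tkt* stood at −2.28 in the smaller haemoglobin-rich barcodes and −0.26 in the endothelial barcodes, and *Cpox* at −0.76 (−0.96 to −0.56) and −0.82 (−1.44 to −0.21), so that *Cpox* was lower in both, from 19.6 CPM in the untreated endothelial barcodes. *Hspa5* stood at 0.34 and −0.24.

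The division and maturation genes of the members were not all alike in these smaller barcodes. With the mixed ones kept (1341 and 327 barcodes), the S phase list summed to −0.87 (−1.18 to −0.58) in the smaller barcodes. The G2 and mitosis list summed to −0.72 (−0.78 to −0.66). *Cenpf* stood at −1.72 there (45 calcitriol UMIs), *Rrm2* at −1.77 (15) and *Top2a* at −1.57 (12), from far lower levels than in the members. *Ube2c* stood at −0.21 (−0.32 to −0.10). *Tyms* (−0.12), *Tk1* (−0.15), *Pcna* (0.08) and *Atad2* (0.06) had at most 12 calcitriol UMIs each, and their intervals held 0. *Xpo7* stood at −0.12, *Tmcc2* at 0.26, *Ube2h* at −0.09 and *Bpgm* at 0.10, close to equal. *Hist1h2ap* stood at 1.07 and *Hist1h1e* at −0.76, on the same sides as in the members, whereas *Hist1h2bc* stood at −0.96. *Bax*, of the p53 list, stood at 1.46 (0.61 to 2.28) with 21 calcitriol UMIs, on the other side from the members. The differences between sets of barcodes were not tested.

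**Figure D5:**
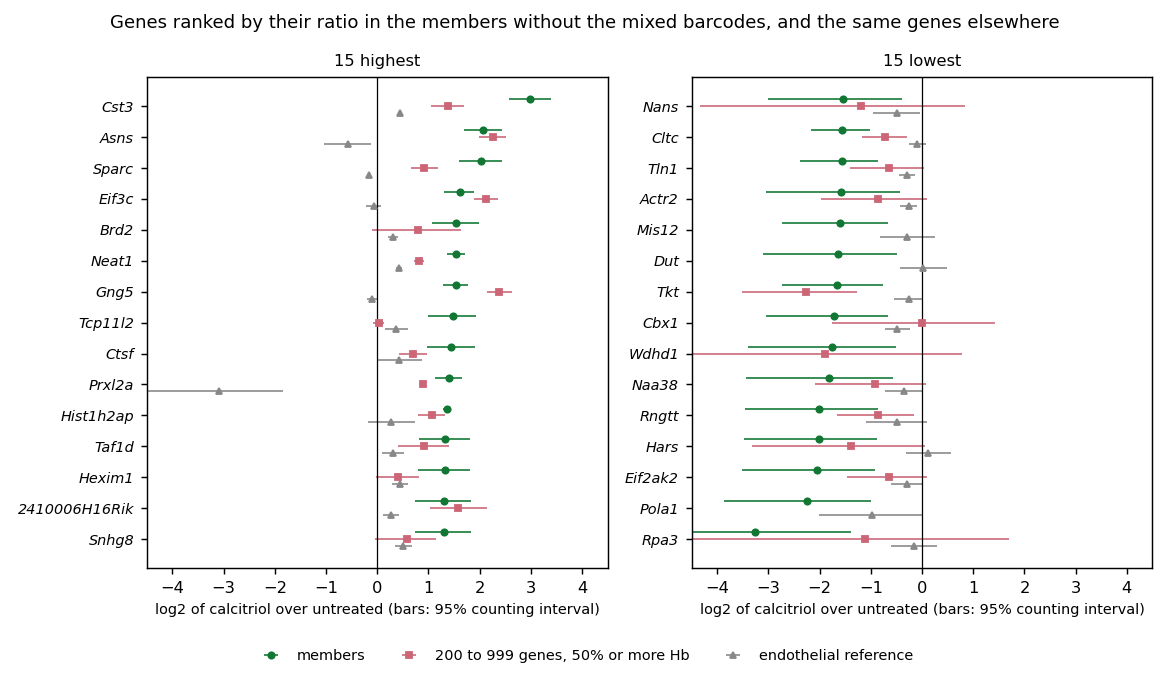
Log2 ratio of calcitriol over untreated UMIs per non-haemoglobin UMI (x axis) for the 15 highest (left) and 15 lowest (right) genes of the members without the mixed barcodes, with the same genes in smaller barcodes (200 or more but fewer than 1000 genes) with at least 50% haemoglobin and in endothelial barcodes; bars are 95% counting intervals, cut at the panel edge, and a missing point means fewer than 10 untreated UMIs or 0 calcitriol UMIs. *Asns*, *Eif3c* and *Gng5* lie above 1.5 in both haemoglobin-rich sets and at or below 0 in the endothelial barcodes.

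The untreated members were also set beside the 1341 untreated barcodes with 200 or more but fewer than 1000 genes and at least 50% haemoglobin. The S phase list took 0.651% of non-haemoglobin UMIs in the members and 0.0397% in these smaller barcodes, the G2 and mitosis list 5.97% and 0.836%, and the terminal maturation list 7.45% and 19.4%. *Bpgm* had 681 CPM in the members and 14970 in the smaller barcodes, and *Top2a* 2180 and 75.3. *Ube2c* differed less, at 6384 and 1874. The sets differ in the number of detected genes by their rules, which bears on every such value.

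Barcodes on either side of the limits of the rule are described without the mixed ones. At the haemoglobin limit of the untreated library the shares were close. The 83 barcodes with 45 to 50% haemoglobin had 1.24% of S phase and 4.68% of G2 and mitosis UMIs, and the 121 with 50 to 55% had 1.10% and 4.98%. At the gene minimum there was a step, with 0.137% and 1.91% in the 43 barcodes just below it (900 genes or more), and 0.257% and 5.04% in the 34 just above it (within 100 genes). In the calcitriol library the 10 barcodes just below 50% haemoglobin had 1.14% and 4.69%, and the 11 just above it 0.667% and 5.15%. With the mixed barcodes these calcitriol values were 0.609% and 2.39% in 15 barcodes, and 0.467% and 3.44% in 15. The 7 calcitriol barcodes below and the 7 above 1000 genes had 0.533% and 0.775% of G2 and mitosis UMIs. Calcitriol members next to the gene minimum thus held little mitotic RNA in sum.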

How the data were processed

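The deposited files hold raw UMI counts per gene and barcode for 32285 genes in 2 libraries, which per the file headers and the methods the authors made with Cell Ranger 4.0.0 on mouse genome mm10 from 10x 3′ v3.1 reads, keeping the barcodes that the program called cells. No normalised values were used, and Seurat 3.2.2, which the authors used afterwards, did not touch these counts. Each barcode's total, detected genes and share of UMIs from *Hba-a1*, *Hba-a2*, *Hbb-bs* and *Hbb-bt* were computed in Python 3.11.15 (pandas 2.3.3, scipy 1.17.1, numpy 2.4.6), and the members were selected on at least 1000 genes and 50% haemoglobin. UMIs were summed over members per library and divided by the non-haemoglobin UMIs. With 1 library per group no test was made. Ratios carry exact conditional binomial, levels Poisson and shares Clopper-Pearson intervals at 95%, which cover counting error only, and a count of 0 allows up to 3 counts. On simulated counts for 2162 genes the intervals held the true ratio in 95.7%. Those counts were drawn as Poisson totals per gene, the model that the intervals assume. The simulation thus checks the computation only, and says nothing of UMIs that cluster in single barcodes.

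A ratio past 1.5-fold with at least 200 UMIs over both libraries was counted as higher or lower. Barcodes with 1% or more of non-haemoglobin UMIs from 111 genes of 12 other cell types were set apart as mixed. Doublets were marked with Scrublet (scanpy 1.11.5, expected rate 0.8% per 1000 barcodes), which marked 172 of 4633 untreated and 123 of 3920 calcitriol barcodes with 200 genes or more, 31 and 1 of them members, and members were kept whether or not marked. Endothelial barcodes had 1000 genes or more, under 20% haemoglobin and 3 or more UMIs of *Cdh5*, *Pecam1* and *Emcn* together.

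The genes named are the most abundant members of 29 gene lists and those past 1.5-fold, the 15 genes with the highest and the 15 with the lowest ratio without globin and mitochondrial genes, the 15 most abundant, the label genes, and the 8 with the largest increase and the 8 with the largest decrease over haemoglobin share among genes with 500 UMIs or more. Some genes that this rule names, and a comparison with another set of barcodes, are not reported here. *Gata1*, *Kit*, *Cyp24a1* and the other-cell markers at 0 were named as markers. *Ccnb1* and *Hsp90aa1* were named after their values were seen. Bins above 70% haemoglobin were joined, because few barcodes lay above 80%. The members and the lists were chosen with earlier results of these data known. Of 530 list genes, 4 symbols (*Ahsp*, *Lnk*, *Mx1* and *Spi2c*) were not found under that name. Promoters were read from the RefSeq table of GRCm38.p6 with chromosome 18 left out. Alternatives were another denominator, equal weight of cells, thinning, bins of haemoglobin or genes, other limits of the rule, other UMI minimums, and leaving out Scrublet-marked or mixed barcodes.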

Additional observations from a re-analysis of the deposited data

How the results depend on the processing

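The direction of the S phase and the G2 and mitosis ratios was the same under each alternative run. Starting from 199 genes higher and 476 lower, an S phase log2 ratio of −0.93 and a G2 and mitosis ratio of −0.43 over all 581 and 51 members, the values moved as follows. With all UMIs as denominator the list ratios were −0.83 and −0.33, and without haemoglobin, mitochondrial and ribosomal protein genes the G2 and mitosis ratio was −0.40. Thinning gave 300 genes higher and a G2 and mitosis ratio of −0.46. Within bins of haemoglobin share the list ratios were −1.25 and −0.50, and within bins of detected genes −0.79 and −0.34. A minimum of 1500 genes left 275 and 32 members, with 118 genes higher and ratios of −1.16 and −0.24. A haemoglobin minimum of 40% gave 314 higher, 756 lower and a G2 and mitosis ratio of −0.62. At 60% there were 319 and 21 members, with ratios of −1.74 and −0.69. Without the mixed barcodes 286 genes were lower and the ratios were −0.70 and −0.15. The number of genes followed the UMI minimum, with 403 higher and 717 lower at 100 UMIs, 87 and 218 at 500, and 4405 and 1354 with no minimum beyond 1 UMI in each library. Leaving out Scrublet-marked barcodes, or weighting cells equally, moved no count or list ratio beyond its limit.

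Within bins of haemoglobin share and without the mixed barcodes, a combination chosen after seeing the data, the G2 and mitosis ratio was −0.23 and the S phase ratio −1.01. Leaving the mixed barcodes out of the bands beside the limits of the rule was also chosen after seeing the data. Of the genes followed through these alternatives, which were not all the genes named, 1 reversed. *Msmp* was at −1.45 with 60% haemoglobin as the minimum, −1.19 without the mixed barcodes and −1.23 within bins without them. Other named genes with ratios near 0 also changed sign without the mixed barcodes. Among them *Hmgb2* went from −0.22 over all members to 0.07, *Slc4a1* from −0.04 to 0.25 and *Eif1* from −0.05 to 0.12. The causes were not tested, except that fewer barcodes or genes enter under a stricter minimum.

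No paired analysis was possible because each group is 1 library. The calcitriol values rest on 51 barcodes, 44 of them without the mixed ones, so genes with under 10 calcitriol UMIs have intervals wider than 2 log2 units, and mouse-to-mouse spread cannot be had from pools of 6.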
